A study of Mus musculus with 10 samples.

Results

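H3K27me3, the trimethylation of lysine 27 on histone H3, was compared between embryonic stem cells (ESCs) and neural stem cells (NSCs) of the mouse through the regions called enriched for it in each cell type. The members are all 3839 H3K27me3 peaks, 2192 of ESCs and 1647 of NSCs, out of 9769 peaks in the 6 lists of the series. An ESC peak that shared at least 1 bp with an NSC peak was counted as shared, and likewise for an NSC peak. The other peaks are called ESC only and NSC only, which says that the other list had no peak there and not that the mark was absent.

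The study followed turnover of histone H3.3 across the genome as ESCs differentiate, and Polycomb group (PcG) binding was mapped to set turnover beside it. The ESCs were of the J1 line, grown with 15% serum and 1000 U/ml LIF on embryonic fibroblasts inactivated with mitomycin C, and the fibroblasts were depleted before harvest. The NSCs were made from J1 ESCs by differentiation in culture and grown on gelatin with EGF and FGF at 10 ng/ml each. Both were cross-linked in 1% formaldehyde for 10 min and sheared to 250 bp on average, and each H3K27me3 library was set against an input of its own cell type. Each cell type had 1 library, so no value below has a replicate check and no test was made. Intervals are exact 95% Clopper-Pearson intervals that cover counting error over peaks alone. The lists give start and end positions on mm9 with no height or tag count, so the depth is unknown, and a difference in depth, antibody yield or calling threshold cannot be told apart from a difference between the cells. A list also describes a population, in which a mark on few cells and a weak mark on all cells look alike.

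H3K27me3 is deposited by the Polycomb repressive complex PRC2, whose methyltransferase is Ezh2, and is bound by Cbx proteins of the complex PRC1, whose subunit Ring1b is a ubiquitin ligase for histone H2A. In mammals the mark is known to lie over CpG-rich start sites of developmental genes that are silent or poised, where it can spread into broad domains. In ESCs these include regulators of many lineages, and during neural differentiation genes of the neural lineage are known to lose the mark while genes of other lineages can retain or acquire it.

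To show what a region of each class looks like, 250 bases of mm9 are printed 5′ to 3′ in the direction of transcription for 3 regions just upstream of a start site, and on the forward strand for the centre of 1 distal peak, with CpG dinucleotides in capitals. No base of them is annotated as an exon. The Olig2 sequence (chr16:91225545-91225794, forward strand) lay wholly under an ESC only peak, the Neurog2 sequence (chr3:127335804-127336053, forward strand) under peaks of both cell types, and the Lin28b sequence (chr10:45206202-45206451, reverse strand) under an NSC only peak. The distal sequence (chr2:94033776-94034025) is the centre of an intergenic NSC only peak 7000 bp wide, 32280 bp from the nearest protein-coding start site, that of Hsd17b12.
Olig2 upstream: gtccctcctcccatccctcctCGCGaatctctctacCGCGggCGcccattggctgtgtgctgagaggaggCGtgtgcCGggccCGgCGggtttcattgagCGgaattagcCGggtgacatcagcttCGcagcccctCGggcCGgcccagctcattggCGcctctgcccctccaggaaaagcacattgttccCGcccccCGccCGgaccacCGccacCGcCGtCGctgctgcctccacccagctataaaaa
Neurog2 upstream: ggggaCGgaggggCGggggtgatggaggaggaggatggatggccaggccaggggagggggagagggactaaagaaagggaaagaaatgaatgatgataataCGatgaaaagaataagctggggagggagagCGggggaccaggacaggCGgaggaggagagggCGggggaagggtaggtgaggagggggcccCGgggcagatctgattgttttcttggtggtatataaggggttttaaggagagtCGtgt
Lin28b upstream: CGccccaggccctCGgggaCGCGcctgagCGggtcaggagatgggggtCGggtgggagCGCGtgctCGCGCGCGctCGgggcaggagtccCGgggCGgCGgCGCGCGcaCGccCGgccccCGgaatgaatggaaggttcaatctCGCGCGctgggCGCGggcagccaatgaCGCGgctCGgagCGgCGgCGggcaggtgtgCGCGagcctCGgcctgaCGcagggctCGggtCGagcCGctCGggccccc
distal NSC peak: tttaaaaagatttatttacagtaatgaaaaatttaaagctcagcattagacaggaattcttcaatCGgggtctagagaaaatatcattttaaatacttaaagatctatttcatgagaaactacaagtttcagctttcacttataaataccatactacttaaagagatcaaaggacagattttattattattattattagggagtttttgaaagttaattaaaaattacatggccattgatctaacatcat
The Olig2 stretch held 22 CpGs at a GC content of 66.8%, the Neurog2 stretch 8 at 58% and the Lin28b stretch 41 at 78.4%. The distal stretch held 1 CpG at 25.6% GC. They were chosen after their values were seen, and the composition of whole classes is given further on.

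Around these start sites the lists differed as follows. Olig2, a bHLH transcription factor of oligodendrocyte and motor neuron progenitors, lay under an ESC peak of 9800 bp that reached 2806 bp past its start and otherwise lay upstream. Within 50 kb of that start on each side, ESC peaks covered 13.8 kb and NSC peaks 0 kb. Neurog2, a proneural bHLH factor, had an ESC peak of 3200 bp and an NSC peak of 14800 bp over its start. At Six6, a homeobox gene of eye and pituitary, the only ESC peak within 50 kb was 1000 bp wide and began 69 bp past the start, whereas 9 NSC peaks covered 42.7 kb. Lin28b, an RNA-binding protein that blocks maturation of let-7 miRNAs, had no ESC peak within 50 kb and 4 NSC peaks that covered 14 kb. Six6 and Lin28b thus had far more bases under NSC peaks, and Olig2 had bases under ESC peaks alone.

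**Figure D1:**
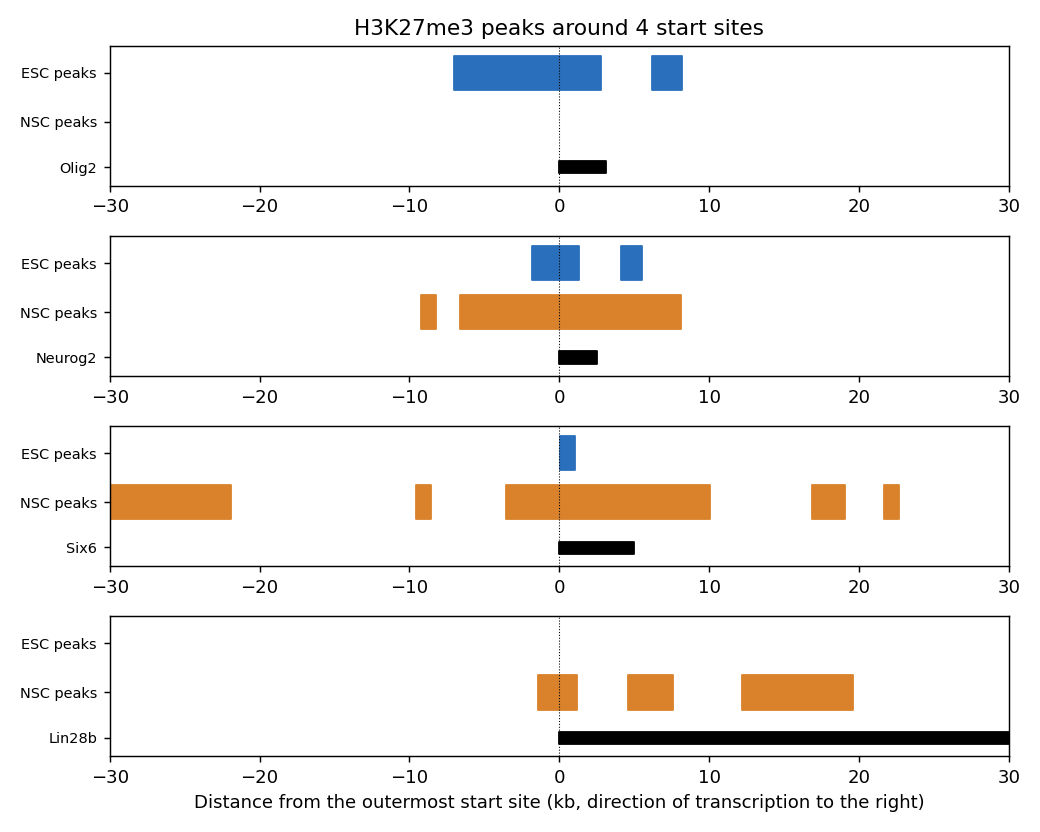
H3K27me3 peaks of ESCs (blue) and NSCs (orange) within 30 kb of the outermost start site of Olig2, Neurog2, Six6 and Lin28b, with the gene body in black and the x axis in kb along the direction of transcription. Olig2 has ESC peaks alone, Neurog2 has a wider NSC peak (14800 against 3200 bp), Six6 has a 1000 bp ESC peak inside an NSC peak of 13600 bp, and Lin28b has NSC peaks alone.

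Most peaks of either list did not meet a peak of the other. ESC only peaks numbered 1575, or 71.9% of the ESC list (69.9% to 73.7%), and covered 3 Mb. NSC only peaks numbered 1063, or 64.5% of the NSC list (62.2% to 66.9%), and covered 1.85 Mb. The other 617 ESC peaks met 584 NSC peaks. Most class-specific peaks were also far from the other list: the median distance to the nearest peak of the other cell type was 540 kb for ESC only and 257 kb for NSC only peaks, and 6.29% and 12.4% had one within 10 kb. On chromosome X lay 33 ESC only peaks (2.1%) and 60 NSC only peaks (5.64%), with 3 shared peaks in each list.

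Shared peaks were wider. Their median width was 2400 bp in both lists, compared with 1600 bp for ESC only and 1200 bp for NSC only peaks. Of the NSC only peaks, 389 (36.6%) had the smallest width in the lists, 1000 bp, which equals the window used for calling, against 323 (20.5%) of ESC only and 52 (8.9%) of shared NSC peaks. Among ESC peaks of 1000 bp, 12.5% (9.27% to 16.3%) were shared, and the share was 35.4% (31.8% to 39.1%) at 2000 to 3800 bp and 74.3% (56.7% to 87.5%) at 8000 bp or more. For NSC peaks the same shares were 11.8% (8.93% to 15.2%), 55.2% (49.9% to 60.5%) and 90.2% (79.8% to 96.3%). A wide peak can meet another more easily than a narrow one, and the part of this in the trend was not tested.

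**Figure D2:**
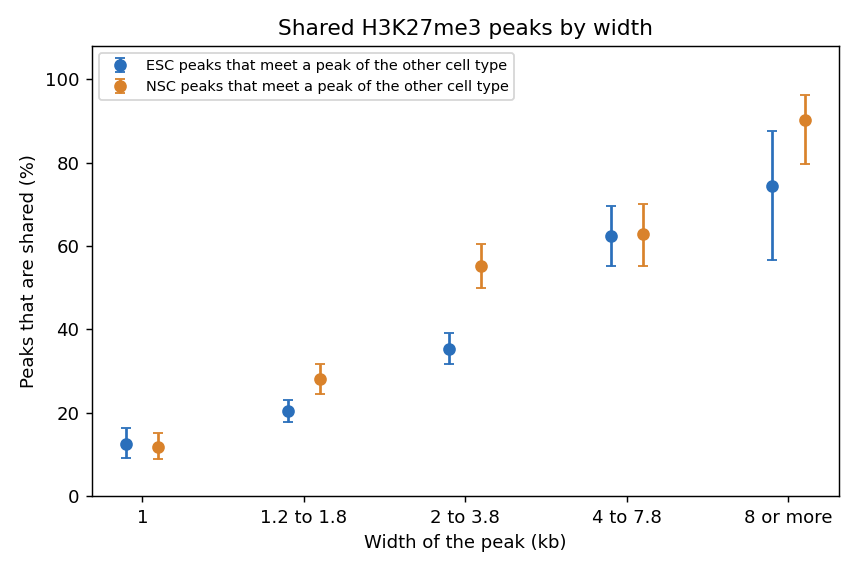
Share of ESC peaks (blue) and NSC peaks (orange) that overlap a peak of the other cell type, in percent, by peak width in kb, with exact 95% intervals over peaks. The share was higher in each wider bin, from 12.5% to 74.3% for ESC peaks and from 11.8% to 90.2% for NSC peaks.

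Of the 4 classes, NSC only peaks had the lowest share near start sites. A protein-coding start site lay within 1 kb of 67.6% of ESC only peaks (65.2% to 69.9%), 70.3% of shared ESC peaks (66.6% to 73.9%) and 72.3% of shared NSC peaks (68.4% to 75.9%), but of 16.9% of NSC only peaks (14.7% to 19.3%). When both lists were first limited to peaks at least 2 kb wide, the share was 38.1% for NSC peaks that met no such ESC peak. Some of these met a narrower ESC peak and count as shared elsewhere. The median distance to a start site was 22233 bp for NSC only peaks and 51 bp for ESC only peaks, and 23.2% of NSC only peaks lay more than 100 kb away. By annotation, 55.1% of NSC only peaks were intergenic and 25.9% intronic, against 16.3% and 8.13% of ESC only peaks.

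NSC only peaks also had the lowest CpG content. The ratio of observed to expected CpGs, which is near 1 where CpGs have not been depleted, had a median of 0.6 in ESC only, 0.61 in shared ESC, 0.606 in shared NSC and 0.185 in NSC only peaks. Their median GC content was 58.1%, 57.1%, 56.1% and 43.3%. Within the NSC only class, the 180 peaks within 1 kb of a start site had a median CpG ratio of 0.591 and the other 883 had 0.167. By width, NSC only peaks of 1.2 to 3.8 kb had a median of 0.21 and those of at least 4 kb 0.249. When both lists were first limited to peaks of at least 2 kb, NSC peaks that met no such ESC peak had a median of 0.452. Sequence that occurs elsewhere in the genome was somewhat more common in this class: 58 NSC only peaks (5.46%) had under 50% of their sampled 32-base words unique in the genome, against 18 ESC only peaks (1.14%).

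**Figure D3:**
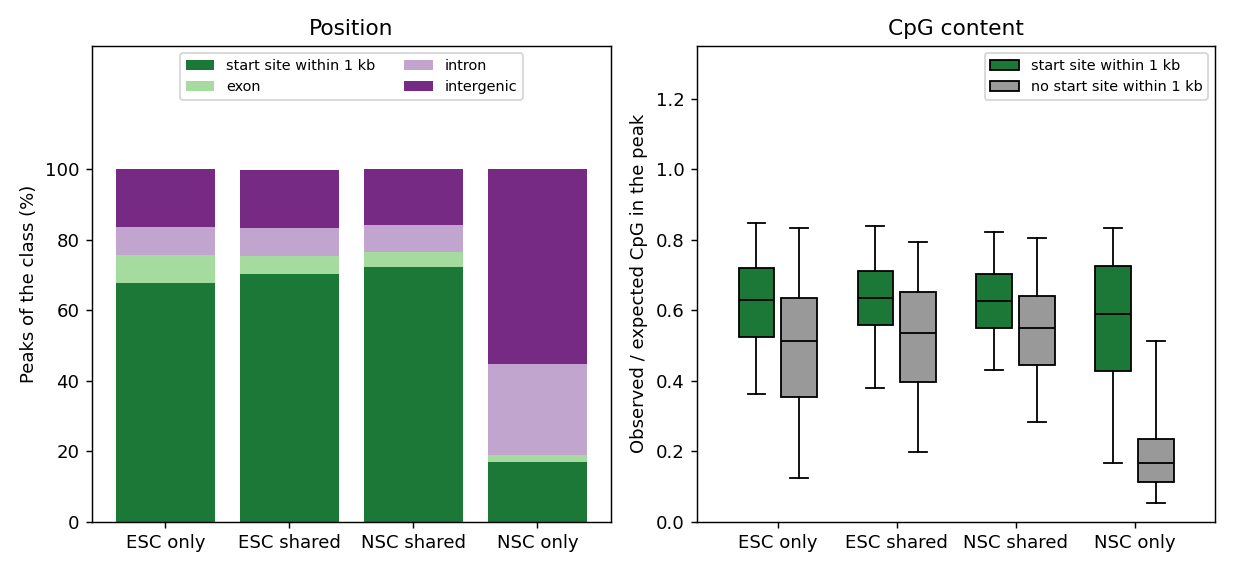
Left, percent of the peaks of each class with a start site at most 1 kb away (dark green), else in an exon, an intron or between genes. Right, observed over expected CpG of the peaks of each class, split by a start site within 1 kb (boxes, quartiles with the median as a line, whiskers from the 5th to the 95th percentile). NSC only peaks are mostly intergenic (55.1%) and have a median ratio of 0.167 without a start site nearby.

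The other PcG lists were then compared with each class. Ring1b peaks of ESCs met 64.1% of ESC only peaks (61.6% to 66.4%) and 92.7% of shared ESC peaks (90.4% to 94.6%). For Ezh2 these shares were 32.4% and 72.8%, and for Cbx2, a PRC1 subunit that binds H3K27me3, 13.1% and 50.6%. These lists were not alike. According to the methods, cells for Ring1b were cross-linked with EGS before formaldehyde, and Ring1b had inputs of its own. In ESCs the Ring1b list covered 7.9 Mb, the Ezh2 list 2.85 Mb and the Cbx2 list 2.59 Mb. The part of this in the shares was not tested. NSC Ring1b peaks met 18.4% of NSC only peaks (16.2% to 20.9%) and 42% of shared NSC peaks (37.9% to 46.1%). By width, NSC Ring1b met 9.77% of the NSC only peaks of smallest width and 66.7% of the 69 that were at least 4 kb wide. None of the 4 lists of PcG proteins met 73.2% of NSC only peaks, 34.7% of ESC only peaks and 3.73% of shared ESC peaks. NSCs were profiled for Ring1b alone among these proteins, so the last shares compare 1 NSC list with 3 ESC lists.

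Counted by gene, ESC peaks held a start site of 1131 of 22202 protein-coding genes (5.09%) and NSC peaks of 452 (2.04%). Of these, 834 (3.76%) were under ESC peaks only, 297 (1.34%) under peaks of both and 155 (0.698%) under NSC peaks only. NSC peaks thus held 26.3% of the genes under ESC peaks, and ESC peaks held 65.7% of the genes under NSC peaks. Genes of the ESC only group mostly had no NSC peak near them: 752 of 834 (90.2%) had no NSC base within 5 kb of the outermost start. In the NSC only group, 106 of 155 (68.4%) had no ESC base within 5 kb, and 40 (25.8%) had an ESC peak within 1 kb, so that for these the ESC peak lay beside the start and not over it. For genes, ESC only and NSC only refer to the start sites alone: the peak over the start met a peak of the other list elsewhere at 67 of the 834 ESC only genes (8.03%) and 41 of the 155 NSC only genes (26.5%). A width given for a gene is summed over all peaks that hold its start sites.

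Gene families were read against these shares over all genes. In 41 of 62 families and marker lists more start sites were under ESC than under NSC peaks, in 16 as many and in 5 fewer. The 5 were the Hoxc and Hoxd clusters, the Zic genes and the lists of ESC and endoderm markers. Of the 16 with as many, 5 had no start site under either list. Over all genes, too, more start sites were under ESC than under NSC peaks, at 5.09% against 2.04%. The sets of families below were composed after the values had been seen, and their counts are descriptions.

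Of 261 genes in 22 families of developmental transcription factors, 47 (18%) were under ESC peaks only, 82 (31.4%) under both and 24 (9.2%) under NSC peaks only. NSC peaks held 63.6% of those under ESC peaks, against 26.3% over all genes. The 246 genes of ion channels and transmitter receptors, which serve mature neurons and muscle, divided otherwise: 54 (22%) were under ESC peaks only, 9 (3.66%) under both and 6 (2.44%) under NSC peaks only, so that NSC peaks held 14.3% of those under ESC peaks. When a start within 1 kb of a peak counted, 61 were ESC only and 18 both, and the share was 22.8%. Under that rule 1079 of all genes were ESC only and 440 both, and the share for the transcription factors was 64.5%. Wider ESC peaks were shared more often, and the part of peak width in the difference between these sets was not tested. Of 26 glutamate receptor genes, 10 were under ESC peaks only, among them Grin2a (2400 bp) and Grin2b (1600 bp), which encode NMDA receptor subunits, and Grid1 (5000 bp). Grm6 and Grm8 were under peaks of both. Of 93 potassium channel genes, 18 were ESC only, 3 both and 4 NSC only. All 5 GABA and glycine receptor genes with a start site under a peak were ESC only, although an NSC peak of 1000 bp met the ESC peak at Gabra2 beside the start. Axon guidance genes gave 13 ESC only, 1 both (the ligand Slit2, at 1000 bp in ESCs and 3800 bp in NSCs) and 0 NSC only of 60.

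Signalling ligands lay between these sets, with 22 ESC only, 14 both and 2 NSC only of 100 genes. Of 19 Wnt ligands, 7 were under peaks of both, among them Wnt1 with 3400 bp in each cell type and Wnt3a with 3600 and 3400 bp, and 6 were ESC only, among them Wnt5a (4600 bp) and Wnt7a (3200 bp). For the receptors of these ligands, 2 of 10 Frizzled genes, Fzd1 (2400 bp) and Fzd6 (1400 bp), were ESC only and 0 were under NSC peaks. The Hedgehog pathway had Ihh (3000 bp), its inhibitor Hhip (1400 bp) and the receptor Ptch1 (1000 bp) under ESC peaks only. Of the TGF-beta superfamily ligands, 8 of 32 were ESC only, among them Bmp2 (3000 bp) and Gdf7 (5400 bp). The ESC peaks at Bmp2 and Gdf7 met NSC peaks of 1400 and 4800 bp that did not hold the start. Another 2 were under both, Bmp6 (3200 and 3800 bp) and Gdf6 (2400 and 2600 bp).

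**Figure D4:**
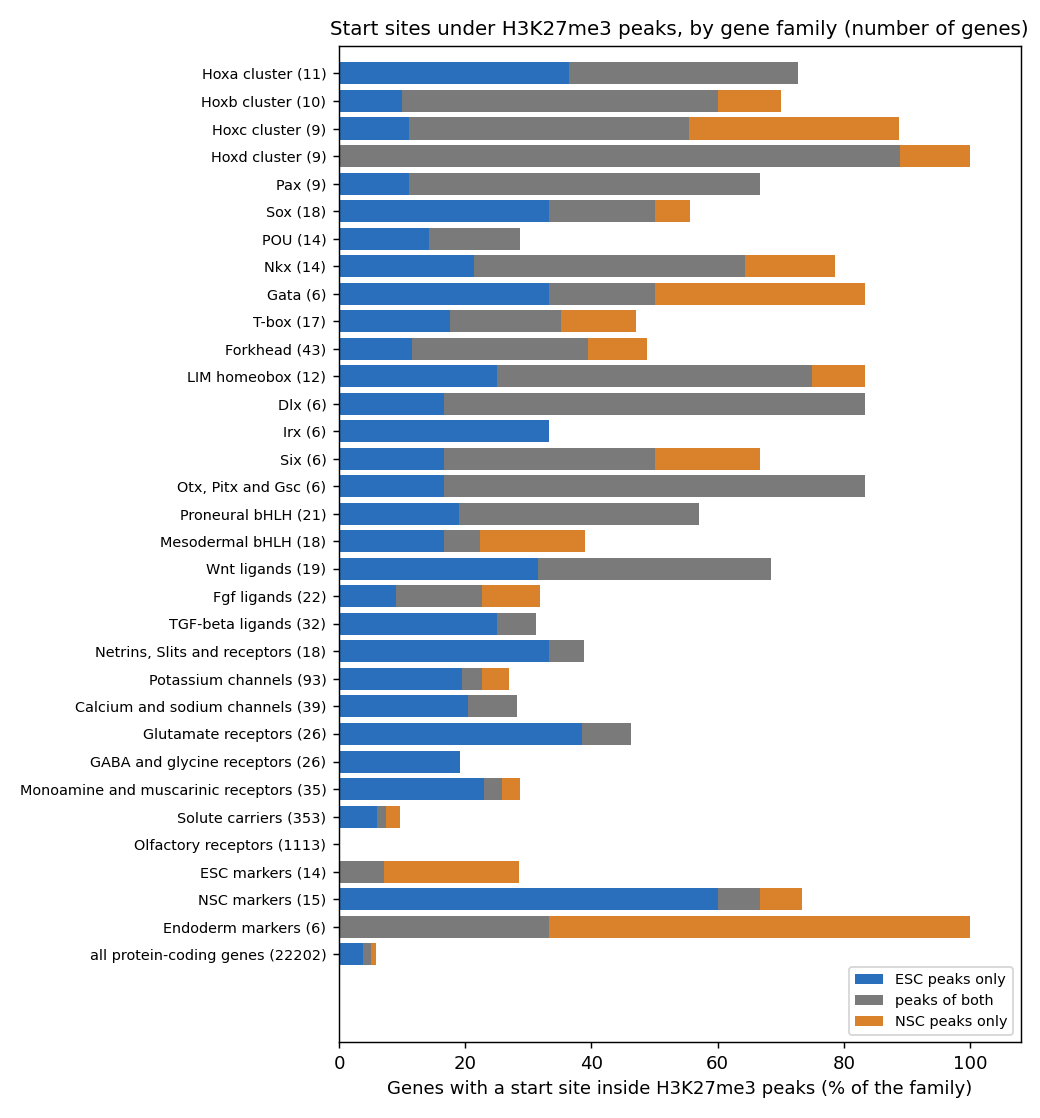
Genes with a start site inside H3K27me3 peaks of ESCs only (blue), of both (grey) and of NSCs only (orange), in percent of each family or marker list, with the number of genes in parentheses. All protein-coding genes (3.76%, 1.34% and 0.698%) are the bottom bar. Hoxd genes are at 100% under NSC peaks, NSC markers are mostly blue, and endoderm markers hold no blue.

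Of 15 NSC markers, 10 had a start site under an ESC peak and 2 under an NSC peak. Of these, 9 were under ESC peaks only, among them Olig2, Olig1 (2000 bp), Pax6 (6600 bp over several start sites), the POU factor Pou3f2 (5400 bp), Sox9 (3200 bp), the intermediate filament gene Nes (2200 bp), the Notch target Hes5 (2000 bp) and the growth factor receptor Egfr (1400 bp). Nr2e1, a nuclear receptor of NSCs, was under peaks of both, at 6600 bp in ESCs and 10200 bp in NSCs. Sox2 was under an NSC peak of 1800 bp with an ESC peak 142 bp from its start. Fabp7, Msi1, Slc1a3 and Vim were under no peak, and Sox1 was not matched.

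Of 14 ESC markers, 10 were under no peak in either cell type, with Pou5f1, Nanog and Zfp42 among them. Their nearest ESC peaks lay 34981, 111789 and 2051037 bp away. Pou5f1 had 1 ESC peak (2.2 kb) and 1 NSC peak (1.8 kb) within 50 kb, and Nanog, Zfp42 and Hnrnpa3 had 0 of either. Fgf4 (2200 bp), Lin28a (1800 bp) and Utf1 (2400 bp) were under NSC peaks only, with no ESC peak within 20 kb, and Esrrb had an inner start site under peaks of 2800 and 2600 bp. RNA was not analysed here, so the labels of the cells were checked against the mark alone. Of 7 fibroblast markers, Prrx1 (3600 bp) and Twist2 (2600 bp) were under ESC peaks and the other 5 under none. A contribution of feeder chromatin to the ESC list was not tested.

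All 6 endoderm markers were under NSC peaks. Sox17 had peaks of 1400 bp in ESCs and 8200 bp in NSCs. Start sites of Gata4 lay under 2 NSC peaks, of 5800 and 7600 bp, and those of Gata6, Foxa1 and Foxa2 under NSC peaks of 10200, 5600 and 6200 bp, and each gene had an ESC peak beside its start, between 492 and 1907 bp away. Within 5 kb of the start on each side, ESC and NSC peaks covered 5293 and 9893 bp at Gata6, 3200 and 8201 bp at Foxa1 and 2000 and 6200 bp at Foxa2. These genes were thus covered in both cell types, over more bases in NSCs. Of 7 mesoderm markers, Mesp1 and Mixl1 were ESC only, T was under both, and Eomes and Hand2 were NSC only with ESC peaks 21 and 620 bp from the start.

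The Hox clusters, whose genes set position along the body axis, differed from one another. All 9 Hoxd genes were under NSC peaks and 8 under ESC peaks, the exception being Hoxd8. In the Hoxa cluster, Hoxa2 (8800 bp), Hoxa3 (4400 bp), Hoxa5 (4200 bp) and Hoxa7 (3200 bp) were ESC only, while Hoxa9, Hoxa10, Hoxa11 and Hoxa13 were under both. Hoxc5 (12200 bp), Hoxc4 (4000 bp) and Hoxc13 (4800 bp) were NSC only by their start sites. The NSC peaks at Hoxc5 and Hoxc4 met ESC peaks beside the start, which covered 6000 and 1200 bp. At Hoxc13 the nearest ESC peak lay 4066 bp from the start. In the Hoxb cluster, Hoxb3, Hoxb5, Hoxb6, Hoxb8 and Hoxb13 were under both. Hoxb7 was ESC only with an NSC peak 770 bp from its start. Hoxb9 was NSC only with an ESC peak 563 bp from its start. NSC peaks covered 43.5 kb within 50 kb of the Hoxb5 start, against 32.1 kb under ESC peaks. Summed over windows of 5 kb on each side of each start, where neighbouring windows overlap, ESC and NSC bases were 71049 and 37130 for Hoxa, 37484 and 48650 for Hoxb, 33534 and 50997 for Hoxc and 27891 and 56247 for Hoxd.

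Other families of transcription factors also divided by member. Of 9 Pax genes, which pattern the nervous system and other organs, Pax1, Pax2, Pax3, Pax5 and Pax7 were under both and Pax6 under ESC peaks only. Of 18 Sox genes, 6 were ESC only, namely Sox4, Sox7, Sox8, Sox9, Sox10 and Sox21, and Sox14, Sox17 and Sox18 were under both. The POU genes Pou3f2 and Pou3f3 were ESC only and Pou4f2 and Pou4f3, of sensory neurons, were under both. Of 43 forkhead genes, 5 were ESC only, 12 both and 4 NSC only, and of 14 Nkx genes 3, 6 and 2. Irx2 (1800 bp) and Irx3 (3000 bp) were ESC only, and the 6 Irx genes had 14553 bases under ESC peaks and 0 under NSC peaks in the 5 kb windows. Nr2f2, a nuclear receptor, had an inner start site under an ESC peak of 3800 bp and no NSC peak within 71 kb. Of genes for PcG proteins themselves, 1 of 8 Cbx genes, Cbx8 (4200 bp), and 1 of 22 others, Bmi1 (6600 bp), were ESC only, and the peak at Cbx8 met an NSC peak 917 bp from its start.

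Several gene families had no start site under any peak in either list, namely the 51 keratins, 324 vomeronasal receptors, 67 histone genes, 76 ribosomal protein genes and 20 tumour necrosis factor receptors. Over all protein-coding genes, 20916 of 22202 (94.2%) were under no peak of either list. An absence among as few as 20 genes lies near that share. Of 1113 olfactory receptors, 1 was under peaks of both.

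The widest peaks of the specific classes were then listed. The 10 widest ESC only peaks, from 7600 to 11800 bp, all met Ring1b, Ezh2 and Cbx2 peaks of ESCs, and 7 held a start site. They held Tbx2 (11800 bp, chr11:85645201-85657000), Olig2 (9800 bp), En2 (9400 bp), Hlx (9000 bp), Hoxa2 (8800 bp), Lhx2 and Zfp503 (8000 bp each). Tbx2, En2, Hlx and Lhx2 encode transcription factors of heart and limb, midbrain, gut mesenchyme and forebrain. The other 3 were intergenic, one of them (7600 bp) 3118 bp from the start of Cbx8. NSC Ring1b met 1 of the 10, that at En2.

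The 10 widest NSC only peaks ran from 7000 to 16200 bp. NSC Ring1b met 8, ESC Ring1b 1 and ESC Ezh2 and Cbx2 none. Only 3 held a start site, those of 4930447C04Rik (16200 bp, on chromosome 12, the gene next to Six6), Igf2bp1 (9600 bp, chr11:95863201-95872800) and an inner start of Lin28b (7400 bp, chr10:45186601-45194000). A peak of 7200 bp lay 3848 bp from the start of Igf2bp3. Igf2bp1 and Igf2bp3 encode RNA-binding proteins of embryonic tissues that, like Lin28b, are known as genes of the let-7 pathway. Within 50 kb, ESC and NSC peaks covered 0 and 16.2 kb at Igf2bp1 and 0 and 7.2 kb at Igf2bp3. The peak of 14200 bp on chromosome X had 34.6% unique words, so its position is uncertain. Of the 10 peaks, 7 had a CpG ratio under 0.3.

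Further genes with an NSC peak over the start and no ESC peak within 100 kb, named after their values were seen, were Esrp1 (6600 bp), a splicing factor of epithelia, Tcfap2c (6000 bp), an AP-2 factor of trophoblast and germ cells, Sall4 (5200 bp), a zinc finger protein of ESCs, and Dsp (4200 bp), which encodes the junction protein desmoplakin. Their nearest ESC peaks lay 317670, 176909, 153842 and 193383 bp away.

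Shared peaks formed 561 domains once overlapping ESC and NSC peaks were joined. NSC peaks covered more bases than ESC peaks in 254, fewer in 265 and as many in 42, with a median log2 ratio of NSC to ESC bases of 0.00 (quartiles -0.62 and 0.58). At least 2-fold more bases were under NSC peaks in 88 domains (15.7%) and at least 2-fold fewer in 85 (15.2%). ESC peaks covered 1.91 Mb and NSC peaks 2.07 Mb of these domains, of which 1.36 Mb lay under both. In 496 domains 1 ESC peak met 1 NSC peak. In 42, several ESC peaks met 1 NSC peak, and in 19, 1 ESC peak met several NSC peaks. Of the 496 simple domains, the NSC peak reached further out at both edges in 103, lay inside at both in 119 and was shifted to one side in 158.

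The domains were then divided by the genes they held. Of 105 domains with a start site of the 22 families, 69 were wider and 33 narrower in NSCs, 28 (26.7%) were at least 2-fold wider and 10 (9.52%) at least 2-fold narrower, and the median log2 ratio was 0.28. Of 280 domains with start sites of other genes alone, 99 were wider and 162 narrower, 29 (10.4%) and 54 (19.3%) by at least 2-fold, with a median of -0.19. Among domains with at least 2 kb in each cell type, 18 of 79 transcription factor domains were at least 2-fold wider and 4 narrower, and for other genes 9 and 11 of 126. The families do not hold every transcription factor, and Uncx and Ebf3, for instance, count as other genes.

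**Figure D5:**
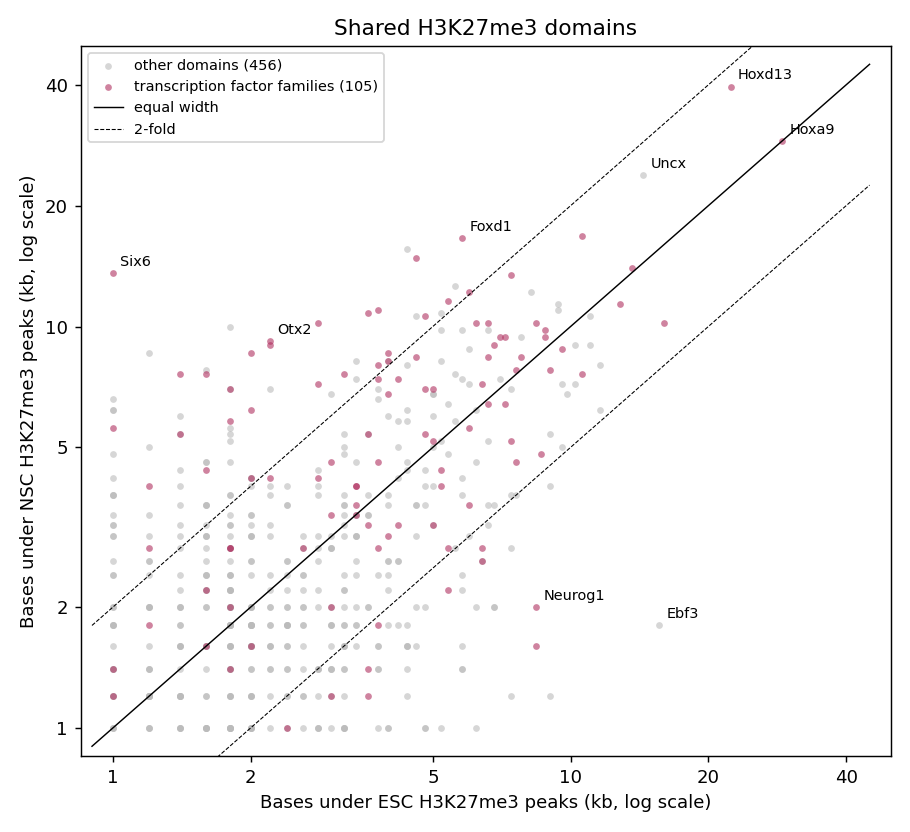
Each of the 561 shared domains by the bases under its ESC peaks (x) and its NSC peaks (y), in kb on log axes, with domains of the transcription factor families in red and others in grey. Points above the solid line were wider in NSCs, and dashed lines mark a 2-fold change. Six6 (1000 against 13600 bp) and Ebf3 (15600 against 1800 bp) lie farthest from equal width among the labelled domains.

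The widest domain spanned 40000 bp of the Hoxd cluster (chr2:74491601-74531600) from Evx2 to Hoxd10, where 6 ESC peaks covered 22400 bp and 1 NSC peak covered 39600 bp. At Hoxa9 to Hoxa11, peaks of each cell type covered 29000 bp. Uncx, a homeobox gene of somites, had 14400 bp in ESCs and 23800 bp in NSCs, and Foxd1 had 5800 and 16600 bp. Lmx1b, a LIM homeobox gene of midbrain and limb, had 16000 and 10200 bp, and Pax7 13600 and 14000 bp. Of the 10 widest domains, 7 were wider and 2 narrower in NSCs, and in 6 several ESC peaks met 1 NSC peak.

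By the log2 ratio, and with at least 2 kb in each cell type, the domains that widened most were those of Lhx9 (2.10, from 2000 to 8600 bp), Otx2 (2.06, from 2200 to 9200 bp), Nkx2-4 (2.03, from 2200 to 9000 bp), Foxd3 (1.87) and Shox2 (1.83). Neurog2 (1.69), an intergenic domain on chromosome 17 (1.67), Foxa2 (1.63) and Hoxc12 (1.58) were also among the 10. Otx2 encodes a homeobox factor of the anterior brain, and Foxd3 a factor of ESCs and neural crest. In 5 of these 10 domains several ESC peaks met 1 NSC peak.

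The domains that narrowed most were those of Neurog1 (-2.07, from 8400 to 2000 bp), an intergenic region of chromosome 11 (-1.77, from 6800 to 2000 bp), Gm10717 and Gm10718 on chromosome 9 (-1.77), Ebf2 (-1.63), Emx1 (-1.40), Gm6320 (-1.40), Nkx1-1 (-1.30), Gm10722 and Gm11168 on chromosome 9 (-1.30), Lhx6 (-1.30) and Tmem132e (-1.27). Neurog1 and Neurog2, a pair of related proneural factors, thus stood at opposite ends. Both chromosome 9 domains consist of repeated sequence, with as little as 5.13% and 8.51% unique words in a peak, so their counts of bases are uncertain. Ebf3, with 15600 bp in ESCs and 1800 bp in NSCs, had a lower ratio still (-3.12) but fewer than 2 kb in NSCs, and its NSC peak lay 7072 bp from the outermost start and over none of its start sites.

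miRNA hairpins were checked in the same manner. Of 529 named miRNA genes, 9 had the 5′ end of the hairpin under ESC peaks only, 4 under both and 4 under NSC peaks only. Among all 1568 annotated miRNA genes the counts were 16 (1.02%), 8 (0.51%) and 9 (0.574%). Of protein-coding genes, 3.76%, 1.34% and 0.698% were in these groups, each above the share of all annotated miRNA genes. These shares are not fully alike. A protein-coding gene counted if any of its start sites lay under a peak, and a miRNA gene by the 5′ end of its hairpin. The position of the promoter was not considered. Mature sequences from RefSeq (GRCm38.p6) are printed 5′ to 3′ with the seed, bases 2 to 8, in capitals, for 2 miRNAs of each group. The hairpins of Mir137 (chr3:118136761-118136862) and Mir219-2 (chr2:29701151-29701247), which give miRNAs known from the nervous system, lay under ESC only peaks of 2400 and 1600 bp. Mir196a-2 (chr15:102803772-102803881) and Mir196b (chr6:52180080-52180164), which lie in the Hoxc and Hoxa clusters and share a seed, lay under peaks of both, at 7400 and 16800 bp and at 26000 and 16800 bp in ESCs and NSCs. Mir615 (chr15:102845341-102845432), inside Hoxc5, lay under an NSC peak of 12200 bp that met ESC peaks elsewhere, with no ESC peak over the 5′ end of the hairpin. Mir129-2 (chr2:94081521-94081610) lay under an NSC only peak of 2600 bp. An ESC peak that did not meet it lay nearby, at chr2:94084001-94085200.
miR-137-3p: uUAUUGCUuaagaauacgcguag
miR-219a-5p: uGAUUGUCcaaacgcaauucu
miR-196a-5p: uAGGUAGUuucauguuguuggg
miR-196b-5p: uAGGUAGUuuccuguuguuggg
miR-615-3p: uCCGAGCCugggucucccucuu
miR-129-5p: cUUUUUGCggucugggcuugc
Mir124a-3 was under peaks of both (4000 bp in ESCs and 3800 bp in NSCs) and Mir124a-1 under an NSC peak of 1000 bp.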

How the data were processed

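H3K27me3 ChIP-seq of 1 ESC and 1 NSC library was analysed from the deposited peak positions, with the Ring1b, Ezh2 and Cbx2 lists as context. The inputs gave no file used here. The members, gene lists and families were chosen with earlier results of these data known. According to the methods, tags were mapped to mm9 with Bowtie 0.12.9, whereas the submitters' processing notes name BWA. The authors counted tags in 1 kb windows at 200 bp steps, compared ChIP with input by a negative binomial model whose size parameter was chosen by inspection, and merged enriched windows within 1 kb. The threshold is not given in the sources used here. The deposited columns hold start and end positions in bp (unit other), with no score, so depth is unknown.

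Python 3.11.15, numpy 2.4.6 and scipy 1.17.1 were used for overlaps, widths and distances, which were tested on simulated data with planted peaks, and plotted with matplotlib 3.10.9. Start sites came from GENCODE on NCBIM37, the assembly of mm9, for 22342 protein-coding genes joined by name into 22202. Repeated sequence was measured as the share of 32-base words, taken every 25 bp, that occur at 1 place in the genome, since the reference carried no repeat mask. Genes named are those in the 10 widest peaks or domains, the 10 domains that widened or narrowed most (at least 2 kb in each cell type), members of the 62 families and lists, and loci that the study discusses, others being marked as chosen after their values were seen. A few genes that the rule names are not reported here. Alternatives were an overlap of at least 50%, a 1 kb gap counted as shared, peaks within 3 kb merged, peaks of at least 2 kb, the smallest peaks left out, autosomes alone, other definitions of start sites, spans in place of covered bases and 1 kb centred on each peak. Leaving out peaks with under 50% unique words was added after the data were seen.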

Additional observations from a re-analysis of the deposited data

How the results depend on the processing

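No paired analysis was possible because each cell type had 1 library and no test was made. Of 83 alternative values for 26 results, 54 moved by less than the counting interval, or by at most 1.5 times for counts (transcription factors under NSC peaks only, 24, came to that limit with 16 when a start within 1 kb counted). The 29 that moved further follow. For peaks of at least 2 kb, both lists were limited to such peaks before the classes were formed. An ESC only or NSC only peak there can therefore meet a narrower peak of the other list. NSC peaks that met an ESC peak made up 42.5% among peaks of at least 2 kb and 41.2% without the smallest width. Among peaks of at least 2 kb, 458 genes were under ESC peaks only and 181 under both, and a start within 1 kb put 18 channel and receptor genes under both. The shares of ESC only, shared ESC, NSC only and shared NSC peaks near a start site were 71.7%, 74.9%, 19.4% and 76.4% with all annotated genes, 61.7%, 64.3%, 14.1% and 66.4% with the outermost start, and 75.9%, 79.1%, 38.1% and 83.1% among peaks of at least 2 kb. Ring1b of the same cell type met 87.9%, 99.2%, 43.5% and 60.9% of the classes formed from peaks of at least 2 kb. In these classes the median CpG ratio was 0.625 in ESC only and 0.452 in NSC only peaks. Shared domains of such peaks had a median log2 ratio of 0.04, with 33 at least 2-fold wider and 20 narrower. In 1 kb centred on each peak of the main classes, the median CpG ratio was 0.643, 0.652 and 0.641 in ESC only, shared ESC and shared NSC peaks. The cause of these shifts was not tested. Without tag counts, a gap between peaks cannot be told apart from enrichment just under the threshold.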

Other observations

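Genes of other types were also under H3K27me3 peaks. Of 1272 annotated lincRNA genes, 71 (5.58%) had a start site under ESC peaks only, 29 (2.28%) under peaks of both and 17 (1.34%) under NSC peaks only, against 3.76%, 1.34% and 0.698% of protein-coding genes. Start sites with ESC peaks only were under ESC Ring1b peaks at 602 of 834 protein-coding genes (72.2%) and under NSC Ring1b peaks at 66 (7.91%). Start sites with NSC peaks only were under ESC Ring1b peaks at 86 of 155 genes (55.5%) and under NSC Ring1b peaks at 47 (30.3%). For the 297 genes under peaks of both, the ESC and NSC Ring1b counts were 279 (93.9%) and 118 (39.7%). For the 20916 genes under neither list they were 779 (3.72%) and 215 (1.03%). The ESC Ring1b list covered 7.9 Mb and the NSC list 3.6 Mb, and the part of this in these shares was not tested.

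Shared domains without a protein-coding start site numbered 176, of which 86 were wider and 70 narrower in NSCs, compared with 168 and 195 of the 385 with one. In the 10 shared domains with under 50% unique words in a peak, 1 was wider and 8 were narrower in NSCs.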
